A study of Mus musculus with 139 samples.

Results

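Lungs of mice given 10 µg of multi-walled carbon nanotubes (MWCNT) were compared with lungs of mice given only the vehicle, 1 month after exposure. The samples were taken by their labelled source. This gave 8 MWCNT and 8 vehicle arrays, which are 2 of the 18 groups of the series with 1 array for each mouse, and every gene that the array annotation pairs with a single symbol was tested (22180 genes). The 10 µg group held 8 male C57BL/J6 mice, obtained at an age of 7 weeks, that breathed in 1 droplet of MWCNT suspended in dispersion medium (DM) from the base of the tongue under isoflurane, a procedure called pharyngeal aspiration. The control group held 8 male C57BL/J6 mice of the same source that received DM alone, a buffered saline with glucose, mouse serum albumin and the surfactant phospholipid DPPC, by the same route. Each array held the RNA of the lung tissue of 1 mouse. The study asked how the lung responds to rising MWCNT doses up to 1 year, and its other 1-month groups of this material received 1, 40 or 80 µg.

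MWCNT are stiff carbon fibres that reach the airways and air sacs, where macrophages take them up and clear them slowly. Inhaled particles, allergens and parasites can all set off type 2 immunity, in which interleukins 4 and 13 act through their receptor and the transcription factor STAT6 on airway epithelium and macrophages. Airway epithelium then forms mucous (goblet) cells that secrete gel-forming mucins, and macrophages and epithelium make resistin-like and chitinase-like proteins. Values are log2 expression levels after RMA, an array normalization, so a difference of 1 is a doubling.

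The 16 arrays had similar medians, 4.68 to 5.03 over all genes, and lung markers were high in both groups. Sftpc, the surfactant protein of type 2 alveolar cells, was between 12.26 and 12.74 in 10 µg lungs and between 12.42 and 12.68 in DM lungs. Tissue from outside the lung was present in some arrays. Acta1, the actin of skeletal muscle, was at 8.88 in 10 µg replicate 8 and at 7.11, 10.40 and 9.31 in DM replicates 1, 2 and 8, while no other array of these groups passed 6. Krt4, a keratin of squamous epithelium, was at 12.11 in DM replicate 2. Titles of 1 of the 8 arrays with 10 µg and of 4 of the 8 DM arrays (replicates 3 to 6) carry the word replacement, whose meaning no label gives. DM replicate 3, one of them, was the highest DM mouse for Clca1, Retnla and Chil4. Values without these arrays are given beside the genes past the test and beside several list counts that they moved.

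Only 5 of 22180 genes passed the test at 10 µg (limma, Benjamini-Hochberg adjusted p under 0.05 over all genes), or 0.0225%. Of these, 4 rose (0.018%), and each of them encodes a secreted protein: Clca1, Retnla, Chil4 and Muc5b. The remaining gene, the olfactory receptor Olfr605, fell (0.00451%). With each array centred on its median the split was 7 higher and 0 lower, and with arrays scaled on the middle of their values it was 5 and 0. In an unadjusted test at p under 0.05 there were 1018 genes (4.59%), 414 with a higher mean (1.87%) and 604 with a lower one (2.72%). The median difference over all genes was -0.02, and 42.7% of genes had a higher mean in 10 µg lungs. All 8 mice with 10 µg lay above every DM mouse for 6 genes (0.0271%), namely Clca1, Retnla, Muc5ac, Fcgbp, Ctsk and Tex29. All 8 lay below every DM mouse for Olfr605, Pou2af1 and Pou5f1-rs4 (0.0135%). Tex29, Pou2af1 and Pou5f1-rs4 are named here after their values were seen.

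Clca1, a secreted metalloprotease of mucous cells that is bound up with mucus, had the largest difference. Its level was lowest at 8.23, median 9.46 and highest 10.29 in 10 µg lungs, against 3.55, 4.59 and 8.10 in DM lungs. The groups did not overlap, although DM replicate 3, at 8.10, came close to the lowest exposed mouse, and the next highest DM mouse was at 5.36. Clca1 rose by 4.50 ± 0.63 (SE; 95% interval 3.25 to 5.76), or 22.7-fold (limma, adjusted p = 1.81e-06). In whole tissue more cells of a type and more RNA per cell cannot be told apart, which holds for every gene below.

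Retnla, resistin-like molecule alpha, is secreted by alternatively activated macrophages and airway epithelium in type 2 inflammation. It was lowest at 9.03, median 9.40 and highest 10.21 in 10 µg lungs, against 6.88, 7.30 and 8.48 in DM lungs, again without overlap. Retnla rose by 2.01 ± 0.31 (SE; 95% interval 1.40 to 2.61), 4.02-fold (limma, adjusted p = 1.3e-05). Chil4, or Ym2, is a chitinase-like protein of type 2 inflammation. Its level was lowest at 3.31, median 5.94 and highest 7.38 in 10 µg lungs, against 1.53, 2.42 and 3.85 in DM lungs. The exposed mice were widely spread, and 7 of 8 lay above every DM mouse. Chil4 rose by 3.27 ± 0.58 (SE; 95% interval 2.13 to 4.42), 9.67-fold (limma, adjusted p = 0.000701). Its close relative Chil3, or Ym1, did not pass: it was lowest at 9.63, median 10.36 and highest 11.34 in 10 µg lungs, against 9.67, 10.09 and 10.40 in DM lungs, with 3 exposed mice above and 1 below every DM mouse. Whether probes of these similar genes detect each other's RNA was not tested.

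The promoters of Retnla, Chil4 and Chil3 are printed because these genes encode resistin-like or chitinase-like proteins and differ in whether they passed. The source of the sequences held no promoter for Clca1 or Muc5b. STAT6 is known to prefer palindromes with a spacer of 4 bases (TTCNNNNGAA), and other STAT proteins the form with 3 (TTCNNNGAA). Both read the same on either strand, and no match of one overlapped a match of the other in these windows. Each sequence gives the 250 bases before the start of the gene, 5′ to 3′ on the strand of the gene, from RefSeq on build GRCm38.p6, with the match in capitals. Retnla lies at chr16:48842359-48842608 (plus strand), Chil4 at chr3:106219480-106219729 (minus strand) and Chil3 at chr3:106167565-106167814 (minus strand).
Retnla: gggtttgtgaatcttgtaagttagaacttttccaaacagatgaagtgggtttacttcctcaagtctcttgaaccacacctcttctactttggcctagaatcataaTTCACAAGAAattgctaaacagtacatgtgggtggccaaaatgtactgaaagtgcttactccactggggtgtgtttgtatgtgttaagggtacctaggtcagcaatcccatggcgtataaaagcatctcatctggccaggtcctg
Chil4: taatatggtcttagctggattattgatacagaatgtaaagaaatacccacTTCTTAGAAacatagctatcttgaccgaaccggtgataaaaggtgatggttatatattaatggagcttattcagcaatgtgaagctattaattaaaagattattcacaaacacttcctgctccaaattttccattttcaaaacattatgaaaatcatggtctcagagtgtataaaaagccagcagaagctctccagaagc
Chil3: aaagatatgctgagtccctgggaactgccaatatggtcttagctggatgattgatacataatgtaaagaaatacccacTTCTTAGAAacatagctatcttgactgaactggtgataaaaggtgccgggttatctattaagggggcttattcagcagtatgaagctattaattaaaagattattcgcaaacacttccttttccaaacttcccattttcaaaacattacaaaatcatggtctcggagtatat
Retnla held TTCACAAGAA, the form with 4 spacer bases, with its first base 145 bases before the start. Chil4 and Chil3 both held TTCTTAGAA, the form with 3, at 200 and 172 bases. Each window held 1 match to 1 form and 0 to the other, and the pair of chitinase-like genes held the same letters. A difference between Chil4 and Chil3 in their response was not tested. Of 32851 mouse promoter windows of this length, 5.85% held TTCNNNNGAA and 7.02% held TTCNNNGAA. A match is a description of letters and says nothing about binding.

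Muc5b, the gel-forming mucin that airways make at rest, was lowest at 7.83, median 8.32 and highest 8.65 in 10 µg lungs, against 6.96, 7.51 and 7.84 in DM lungs. The lowest exposed mouse and the highest DM mouse were almost level, and 7 of 8 exposed mice lay above every DM mouse. Muc5b rose by 0.84 ± 0.17 (SE; 95% interval 0.49 to 1.19), 1.79-fold (limma, adjusted p = 0.0239). Olfr605, an olfactory receptor gene with no role in lung known here, was lowest at 2.79, median 3.0 and highest 3.20 in 10 µg lungs, against 3.22, 3.86 and 4.85 in DM lungs. It fell by 0.94 ± 0.20 on the log2 scale (limma, adjusted p = 0.0404). The files give no detection call, so whether either level is above background was not tested.

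Clca1, Retnla and Chil4 passed without any single array, whichever of the 16 was left out. The call for Muc5b ended without 10 µg replicate 1, 3, 5 or 8 or without DM replicate 3, 5 or 8 (limma, adjusted p from 0.0513 to 0.124, differences from 0.77 to 0.83). That for Olfr605 ended without any one of the 8 arrays with 10 µg and without DM replicate 1, 3, 5 or 7 (adjusted p from 0.0539 to 0.286, differences from -0.97 to -0.80). Among arrays without the word replacement, 7 with 10 µg and 4 with DM, the difference was 4.75 ± 0.81 for Clca1 (SE; limma, adjusted p = 0.00194) and 2.03 for Retnla (adjusted p = 0.0114). In the same arrays it was 3.19 ± 0.71 for Chil4 (adjusted p = 0.129), 0.70 for Muc5b (adjusted p = 0.479) and -0.97 for Olfr605 (adjusted p = 0.401), none of which passed. Arrays with the word hold a single mouse with 10 µg and give no value of their own. Without the arrays high in Acta1 or Krt4, 7 with 10 µg and 5 with DM, Clca1 was higher by 4.16 and Retnla by 1.97 (limma, adjusted p = 0.00227 for each), while Chil4 at 2.90 and Muc5b at 0.87 missed the threshold (adjusted p = 0.0914 for each). Olfr605, lower by -1.12, passed in these arrays (adjusted p = 0.0207), as did Reg3g, Bpifb1 and 2810459M11Rik, the last named after its values were seen. Neither set was free of the other feature. The DM arrays without the word were replicates 1, 2, 7 and 8, of which 1, 2 and 8 were high in Acta1 or Krt4. In that set the skeletal muscle list had a median difference of -1.87 and the squamous epithelium list -1.41. The DM arrays not high in Acta1 or Krt4 were replicates 3 to 7, of which 3 to 6 carry the word.

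**Figure D1:**
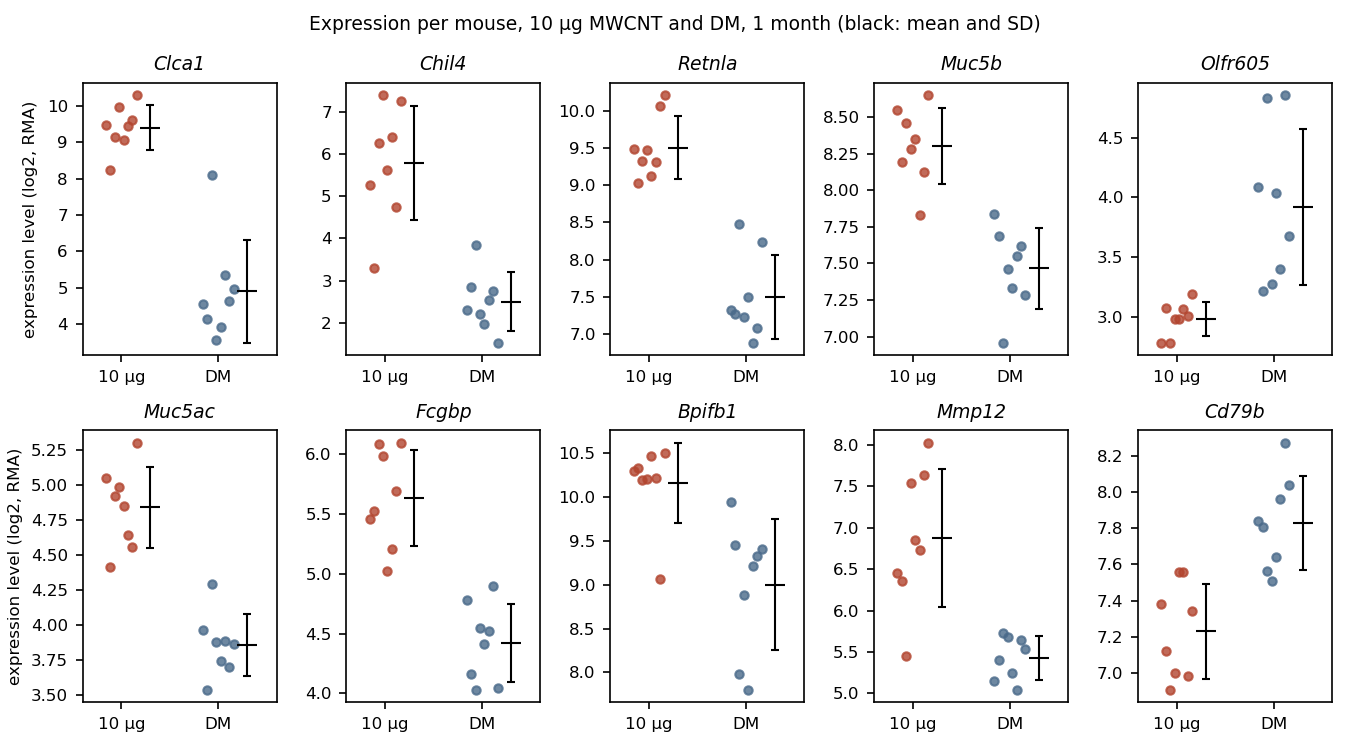
Expression level (log2, RMA) in each mouse for the 5 genes past the test and 5 others, with 10 µg on the left and DM on the right of each panel; points are mice, black marks the mean and SD of 8 mice. Clca1, Retnla, Muc5ac and Fcgbp have no overlap between the groups, Chil4 and Muc5b have 7 of 8 exposed mice above every DM mouse, and Cd79b, a B cell gene, has lower values in most exposed mice.

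The mucous cells list holds 20 genes, all measured, of which 2 rose (Clca1 and Muc5b). A further 8 had a higher mean at an unadjusted p under 0.05, so 10 of 20 did, against 1.87% of all genes, and 0 had a lower one. The count of 10 was 7 in arrays without the word replacement and 10 without those high in Acta1 or Krt4. The median difference of the list was 0.32, against -0.02 over all genes. Slc26a4 (pendrin), an anion exchanger of the airway surface, was lowest at 5.49, median 6.40 and highest 7.50 in 10 µg lungs, against 4.32, 4.88 and 5.75 in DM lungs. With 7 of 8 exposed mice above every DM mouse, its difference of 1.51 ± 0.36 did not pass (limma, adjusted p = 0.104). Muc5ac, the mucin that goblet cells add on stimulation, was lowest at 4.41, median 4.88 and highest 5.30 in 10 µg lungs, against 3.54, 3.87 and 4.29 in DM lungs. All exposed mice were above all DM mice, and the difference of 0.98 ± 0.27 did not pass in the model over all groups (limma, adjusted p = 0.431).

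Fcgbp, a mucus protein that binds antibody, was lowest at 5.02, median 5.60 and highest 6.09 in 10 µg lungs, against 4.03, 4.47 and 4.90 in DM lungs. Its groups did not overlap, and its difference was 1.21 ± 0.29 (limma, adjusted p = 0.104). Fitted on these 2 groups alone, where the spread comes from 16 mice, Muc5ac, Fcgbp, Fer1l6 and Slc26a4 passed as well, so that 8 genes were called, all higher, and Olfr605 was not. Bpifb1, a secreted bactericidal family protein of airway glands and goblet cells, was lowest at 9.06, median 10.26 and highest 10.51 in 10 µg lungs, against 7.80, 9.27 and 9.94 in DM lungs. With the exception of 10 µg replicate 7, at 9.06, the exposed mice were above every DM mouse, and the difference of 1.16 ± 0.26 did not pass (limma, adjusted p = 0.0673). It did in 9 of 30 alternatives, among them centring, quantile normalization, the fit on the 1-month groups, and the fits without DM replicate 1 or 2, without 10 µg replicate 7 or without the arrays high in Acta1 or Krt4. Agr2, a chaperone of mucin folding, differed by 0.77 ± 0.28 with overlapping groups and did not pass. Spdef and Foxa3, transcription factors of goblet cells, differed by -0.11 and 0.19, neither past the test. The mean level of the whole mucous cells list ran from 5.03 to 5.60 in 10 µg lungs and from 4.36 to 4.71 in DM lungs. This mean includes Clca1 and Muc5b, which passed in the same arrays. A level without them was not taken, so the separation is no result apart from those genes.

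Resistin-like and chitinase-like proteins had 10 of 11 members measured, of which Retnla and Chil4 rose. By the unadjusted test 4 had a higher mean and 0 a lower one (median 0.18), against 1.87% and 2.72% of all genes. Chia1, the acidic chitinase of mammals, was lowest at 6.03, median 7.32 and highest 7.57 in 10 µg lungs, against 6.24, 6.53 and 7.37 in DM lungs, and did not pass. Its groups overlapped, with 10 µg replicate 6 below every DM mouse. Retnla was also the 1 gene of 18 that rose in the alternatively activated macrophages list (median 0.07). In that list 3 of 18 had a higher and 0 a lower mean by the unadjusted test. The count of 3 was 2 in arrays without the word replacement and 1 without those high in Acta1 or Krt4. Arg1, the arginase of such macrophages, was lowest at 4.08, median 4.29 and highest 5.62 in 10 µg lungs, against 3.80, 4.34 and 4.94 in DM lungs, and did not pass.

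No gene of the list of type 2 signals passed, and a link of these signals to the genes that rose was not tested. Of 19 measured type 2 cytokines, alarmins and receptors (21 listed), 0 passed, 2 had a higher mean by the unadjusted test and 0 a lower one (median -0.03). These were Ccr8, a chemokine receptor of type 2 helper cells, with a difference of 0.68 ± 0.25, and the epithelial alarmin Il33, with 0.35 ± 0.15. The count of 2 was 1 in arrays without the word replacement and 1 without those high in Acta1 or Krt4. Il33 was lowest at 7.49, median 8.05 and highest 8.30 in 10 µg lungs, against 7.29, 7.60 and 8.05 in DM lungs. The cytokine Il13 averaged 3.28 ± 0.24 in 10 µg lungs and 3.12 ± 0.35 in DM lungs (SD, 8 mice each) and did not pass. Il4 averaged 2.32 ± 0.30 in 10 µg lungs and 2.43 ± 0.33 in DM lungs, and Il5 2.84 ± 0.44 in 10 µg lungs and 2.71 ± 0.26 in DM lungs, and neither passed. These cytokine means were low, all under the 3.92 of Olfr605 in DM lungs. Whether they are above background was not tested, so a change in these cytokines may have gone unseen. Il4ra, the receptor chain shared by Il4 and Il13, averaged 8.52 in both groups, and Stat6 8.64 in 10 µg lungs and 8.72 in DM lungs.

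Of the 10 measured eosinophil genes 0 passed (median -0.02). Rnase2a, an eosinophil-associated ribonuclease, was lowest at 1.96, median 3.96 and highest 5.74 in 10 µg lungs, against 1.41, 1.98 and 4.08 in DM lungs. The highest DM mouse was replicate 3, the next was at 2.22, and the difference of 1.69 did not pass (limma, adjusted p = 0.342). Mast cell and basophil genes had 0 of 12 past the test and 0 at an unadjusted p under 0.05 (limma).

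**Figure D2:**
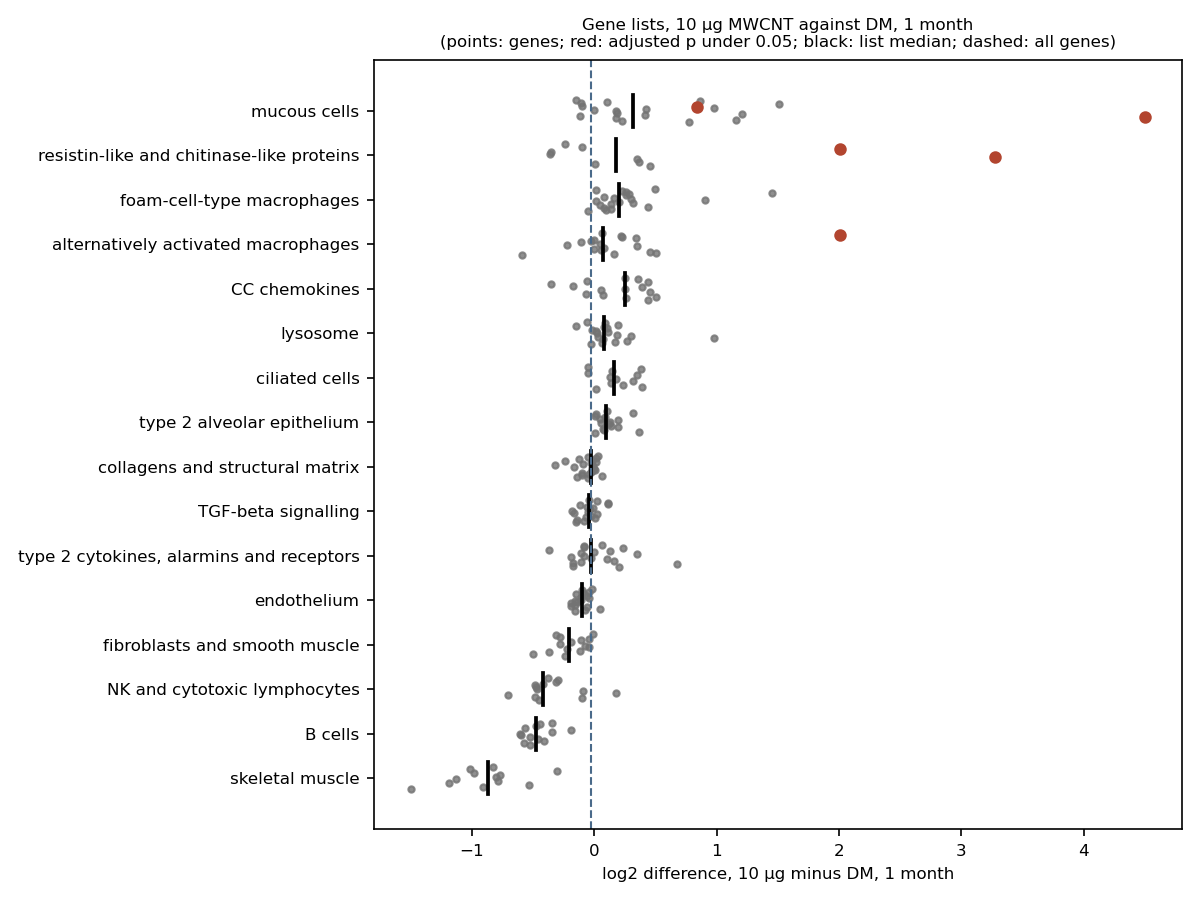
Log2 differences (10 µg minus DM, 1 month) of the genes of 16 lists; each point is a gene, red points passed the test, black bars are list medians and the dashed line is the median of all genes. The mucous cells list has a median of 0.32, while the B cells and the NK and cytotoxic lymphocytes lists have medians of -0.47 and -0.42 with no gene past the test.

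Macrophage genes had higher means in exposed lungs without passing. In the list of foam-cell-type macrophages, cells laden with lipid or debris, 20 of 21 measured genes had a higher mean in 10 µg lungs (median 0.21), 0 passed and 3 had an unadjusted p under 0.05 (limma). Over all genes 42.7% had a higher mean, and 1.87% did at that p. In arrays without the word replacement 15 of the 21 had a higher mean and the median was 0.08. Mmp12, the macrophage elastase, was lowest at 5.45, median 6.79 and highest 8.03 in 10 µg lungs, against 5.04, 5.47 and 5.73 in DM lungs. Apart from 1 mouse the exposed lungs were above every DM lung, and the difference of 1.45 ± 0.35 did not pass (limma, adjusted p = 0.119). Gpnmb, a glycoprotein of lysosome-rich macrophages, was lowest at 6.29, median 6.98 and highest 7.92 in 10 µg lungs, against 5.64, 6.26 and 6.44 in DM lungs, also with 7 of 8 mice above every DM mouse.

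Ctsk, a collagen-degrading cathepsin of macrophages and osteoclasts, was lowest at 6.31, median 6.69 and highest 7.99 in 10 µg lungs, against 5.50, 5.95 and 6.20 in DM lungs. The groups did not overlap, yet the difference of 0.98 ± 0.26 did not pass (limma, adjusted p = 0.326). It was 1 of 4 lysosome genes with an unadjusted p under 0.05, out of 19 measured (median 0.08), a count that was 2 without DM replicate 3, 2 in arrays without the word replacement and 1 without those high in Acta1 or Krt4. Trem2, a lipid receptor, differed by 0.50 ± 0.24, and Adam8, a metalloprotease of activated leukocytes, by 0.58 with 7 of 8 mice above every DM mouse (limma, adjusted p = 0.276). Replicate 8 of the 10 µg group, which also held skeletal muscle RNA, had the highest mean level of the foam-cell list, where exposed mice ran from 7.14 to 8.03 and DM mice from 6.94 to 7.38.

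No chemokine or acute phase gene passed. None of 15 CC chemokines passed (median 0.25), and at an unadjusted p under 0.05 there were 2 with a higher mean, Ccl17 (0.50 ± 0.25) and Ccl22 (0.46 ± 0.20), both ligands of Ccr4 on type 2 helper cells, and 1 with a lower one. Without the arrays high in Acta1 or Krt4 these counts were 0 and 1. The eosinophil attractant Ccl11 averaged 6.66 ± 0.47 in 10 µg lungs and 6.23 ± 0.27 in DM lungs (SD). Among CXC chemokines, which attract neutrophils or lymphocytes, 0 of 11 passed and 0 had an unadjusted p under 0.05 (limma). Of 15 neutrophil genes 0 passed, with 1 in each direction by the unadjusted test. Lcn2, an iron-binding acute phase protein that airway epithelium also makes, was lowest at 8.74, median 9.52 and highest 10.07 in 10 µg lungs, against 8.50, 8.92 and 9.10 in DM lungs. With 6 of 8 mice above every DM mouse, its difference of 0.65 ± 0.20 did not pass.

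Saa3, a serum amyloid made by macrophages and epithelium, was lowest at 3.94, median 4.36 and highest 6.62 in 10 µg lungs, against 3.43, 3.92 and 4.31 in DM lungs, and did not pass. In other lists of inflammation, members at an unadjusted p under 0.05 were counted beside 1.87% of all genes with a higher and 2.72% with a lower mean. Acute phase proteins had 3 of 13 higher (1 without DM replicate 3 and 1 without the arrays high in Acta1 or Krt4), complement 3 of 12 higher (1 in arrays without the word replacement), with C4b at 0.50 ± 0.16 and Cfb at 0.49 ± 0.19, and IL-1 and inflammasome genes 0 of 14 in either direction.

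Of 12 measured club cell genes 0 passed, and 6 had a higher and 6 a lower mean. At an unadjusted p under 0.05 there were 2 with a higher mean, Reg3g and Scgb3a1, and 0 in arrays without the word replacement (limma). Reg3g, a secreted antibacterial lectin, was lowest at 6.77, median 7.84 and highest 8.81 in 10 µg lungs, against 4.76, 6.84 and 7.68 in DM lungs. DM replicate 3 was the lowest, and the difference of 1.33 ± 0.31 did not pass (limma, adjusted p = 0.0975). In 6 of 30 alternatives Reg3g passed, among them without DM replicate 1 or 8, without 10 µg replicate 7 and without the arrays high in Acta1 or Krt4. In the list of plasma cells and antibody transport 1 of 10 genes had a higher mean by the unadjusted test. Pigr, the receptor that carries antibodies across epithelium, was lowest at 7.17, median 8.10 and highest 8.64 in 10 µg lungs, against 6.48, 7.41 and 7.85 in DM lungs. Here too DM replicate 3 was the lowest mouse, 6 of 8 exposed mice were above every DM mouse, and the difference of 0.68 ± 0.21 did not pass (limma, adjusted p = 0.848). Scgb3a1, a secretoglobin of club and other secretory cells, differed by 0.70 ± 0.24 and did not pass, while Scgb1a1, the club cell secretoglobin, averaged 12.61 ± 0.16 in 10 µg lungs and 12.66 ± 0.07 in DM lungs (SD).

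Of 12 measured ciliated cell genes 0 passed and 10 had a higher mean (median 0.16), 4 of them at an unadjusted p under 0.05, a count that was 1 without DM replicate 3. In arrays without the word replacement it was 2, with 7 of 12 means higher (median 0.05). Type 2 alveolar genes had a higher mean in 16 of 16 (median 0.09), against 42.7% of all genes. The count of 16 was 13 in arrays without the word replacement, 14 without DM replicate 3 and 13 without arrays high in Acta1 or Krt4. Of these genes 0 passed the test and 3 had a higher mean at an unadjusted p under 0.05, against 1.87% of all genes (limma). Sftpd, a surfactant collectin, was lowest at 9.63, median 10.31 and highest 10.62 in 10 µg lungs, against 9.73, 9.93 and 10.17 in DM lungs, with 7 of 8 exposed mice above and 1 below every DM mouse. Type 1 alveolar genes had a lower mean in 10 of 12 (median -0.05) and 0 past the test or at an unadjusted p under 0.05 (limma).

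B cell and killer cell genes had lower means in exposed lungs, and none passed. All 13 measured B cell genes were lower on average (median -0.47 against -0.02 over all genes), and 11 of them had an unadjusted p under 0.05, against 2.72% of all genes with a lower mean. Cd79b, a signalling chain of the B cell receptor, was lowest at 6.91, median 7.23 and highest 7.56 in 10 µg lungs, against 7.51, 7.82 and 8.27 in DM lungs. Of 8 exposed mice 6 lay below every DM mouse, and the difference of -0.60 ± 0.16 did not pass (limma, adjusted p = 0.411). Cr2, a complement receptor of B cells, differed by -0.61 ± 0.21 and Blk, a kinase of B cells, by -0.57 ± 0.20. The mean level of the list ran from 6.11 to 6.72 in 10 µg lungs and from 6.71 to 7.06 in DM lungs. Without the arrays high in Acta1 or Krt4, 6 of the 13 genes had a lower mean at an unadjusted p under 0.05.

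Of 13 genes of NK and cytotoxic lymphocytes 12 had a lower mean (median -0.42), with 8 at an unadjusted p under 0.05 and 0 past the test (limma). Over all genes 12715 of 22180 had a lower mean, and 2.72% did at that p. The count of 8 was 6 without the arrays high in Acta1 or Krt4. Gzmb, a granzyme of killer cells, was lowest at 3.03, median 3.87 and highest 4.39 in 10 µg lungs, against 4.04, 4.51 and 4.81 in DM lungs. With 5 of 8 exposed mice below every DM mouse, its difference of -0.70 ± 0.24 did not pass. Gzma, another granzyme, differed by -0.48 ± 0.23 and the receptor Klrk1 by -0.48 ± 0.20, with overlapping groups. T cell genes had 0 of 14 past the test or at an unadjusted p under 0.05 (limma; median -0.15). H2-Ob and H2-Oa, chains of the antigen-loading regulator of B cells, were lower by an unadjusted test (-0.41 ± 0.16 and -0.39 ± 0.18). They belong to the MHC class II list, where 0 of 9 passed. At an unadjusted p under 0.05, 2 of these 9 had a lower and 1 a higher mean, against 2.72% and 1.87% of all genes. Without the arrays high in Acta1 or Krt4 these counts were 1 and 0.

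**Figure D3:**
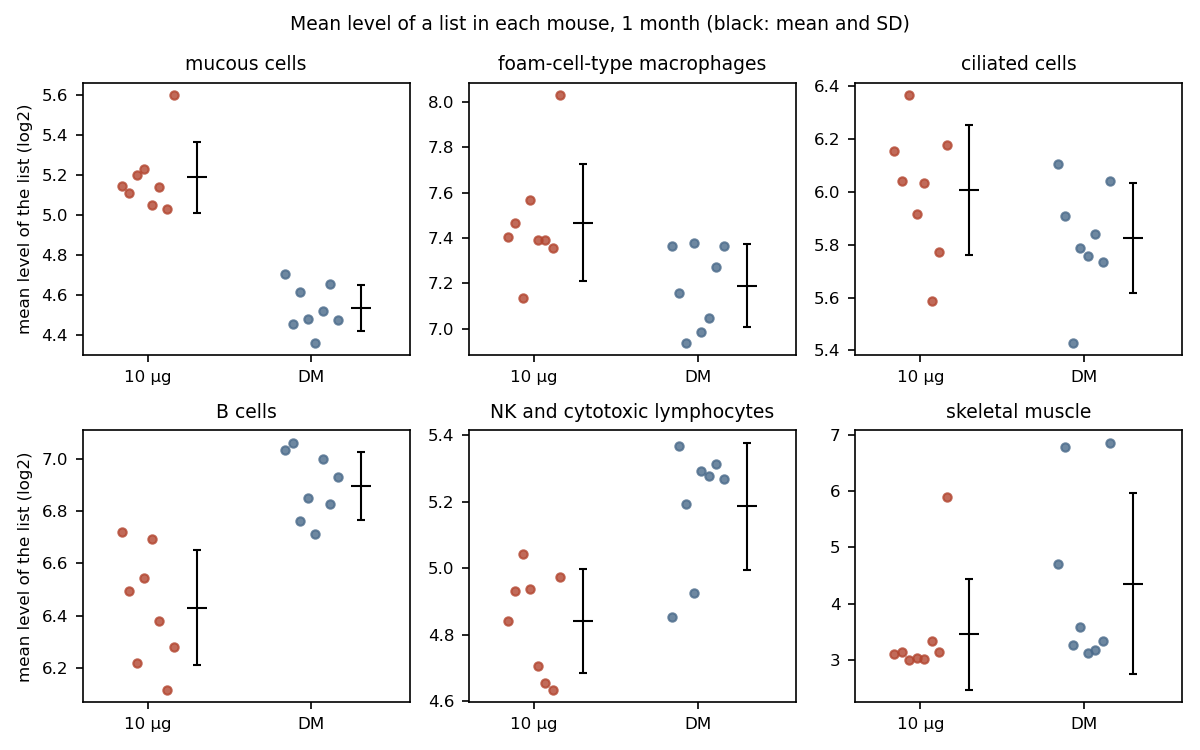
Mean log2 level of 6 gene lists in each mouse, 10 µg on the left and DM on the right; points are mice and black marks the mean and SD of 8 mice. The mucous cells list, which includes Clca1 and Muc5b, does not overlap between the groups. The B cells list overlaps in 1 exposed mouse, and skeletal muscle genes are high in 1 exposed mouse and 3 DM mice.

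No gene of the matrix or TGF-beta lists passed. Of 23 measured collagens and structural matrix genes 0 passed, 0 had a higher and 1 a lower mean by the unadjusted test (median -0.03). Col1a1, the main fibrillar collagen, averaged 8.72 ± 0.21 in 10 µg lungs and 8.76 ± 0.35 in DM lungs (SD), and Tgfb1 8.24 ± 0.19 in 10 µg lungs and 8.25 ± 0.22 in DM lungs. TGF-beta signalling had 0 of 18 past the test or at an unadjusted p under 0.05 (limma; median -0.05). Timp1, a metalloprotease inhibitor, was lowest at 4.63, median 4.97 and highest 5.88 in 10 µg lungs, against 4.33, 4.59 and 4.96 in DM lungs, and did not pass. Fibroblast and smooth muscle genes had a lower mean in 14 of 14 (median -0.21) and endothelial genes in 17 of 18 (median -0.10). Over all genes 12715 of 22180 had a lower mean. In either list 0 passed the test or had an unadjusted p under 0.05 (limma). Without the arrays high in Acta1 or Krt4 the lower means were 12 of 14 (median -0.11) and 15 of 18 (median -0.07).

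Cell cycle genes had a median of -0.01 over 24 genes, with 0 past the test. Of 11 NRF2 targets, genes of the oxidative stress response, 0 passed and 2 had a higher mean by the unadjusted test, among them the cystine transporter Slc7a11 (0.57 ± 0.27), against 0 in arrays without the word replacement and 1 without those high in Acta1 or Krt4. Over 12 skeletal muscle genes the median difference was -0.87, and over 9 of squamous epithelium -0.72 (-0.19 and -0.01 without the arrays high in Acta1 or Krt4), with 0 past the test in either. The part of this tissue in other differences was not tested beyond the values without those arrays.

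Beside the other doses, the 4 genes that rose at 10 µg had intermediate mean levels. Mean Clca1 was 4.90 in DM lungs and 7.14, 9.40, 10.75 and 11.26 at 1, 10, 40 and 80 µg. Retnla averaged 7.50 in DM lungs and 8.22, 9.51, 10.60 and 11.18 at these doses. For Chil4 the means were 2.50 in DM lungs and 3.53, 5.78, 6.59 and 7.70. Muc5b means were 7.47 in DM lungs and 8.01, 8.31, 8.88 and 9.01. Olfr605 had its lowest mean at 10 µg, with 3.92 in DM lungs and 3.55, 2.99, 3.17 and 3.19 at these doses. The comparisons of each dose with DM share the 8 DM mice, and those of 1, 40 or 80 µg with 10 µg share the 8 mice of that dose.

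Against 1 µg, 10 µg lungs had 0 genes past the test (limma; 1106, or 4.99%, at an unadjusted p under 0.05), so the 2 lowest doses were not separated by it. Clca1 was higher by 2.26 ± 0.63 and Chil4 by 2.25 ± 0.58 (adjusted p = 0.913 and 0.872), and Retnla by 1.29 ± 0.31 (adjusted p = 0.872). Against DM, 1 µg had 0 genes past the test (limma; 437, or 1.97%, at an unadjusted p under 0.05), 40 µg had 0.573% of genes and 80 µg 1.79%.

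At 40 µg 4 genes were higher than at 10 µg (0.018%), all of which macrophages or epithelium express: Mmp12 by 1.68 ± 0.35, Ctsk by 1.25 ± 0.26, Gpnmb by 1.46 ± 0.31 and the amino acid transporter Slc6a20a by 0.85. Fitted on the 10 and 40 µg groups alone 0 genes passed, and with array weights 13 did. At 80 µg 150 genes were higher than at 10 µg (0.676%) and 1 was lower (0.00451%), the esterase Pon1. Mmp12 was higher at 80 than at 10 µg by 2.42 ± 0.35, Gpnmb by 2.22 ± 0.31 and Ctsk by 1.83 ± 0.26 (limma, adjusted p = 1.08e-06 for Mmp12). Retnla was higher by 1.67 ± 0.31 and Muc5b by 0.70 ± 0.17 (adjusted p = 0.000243 and 0.0204), whereas Clca1, at 1.86 ± 0.63, and Chil4, at 1.92 ± 0.58, were not past the test (adjusted p = 0.209 and 0.102). Fitted on the 10 and 80 µg groups alone Clca1 passed (1.86 ± 0.23, limma, adjusted p = 0.000546) and Chil4 did not (adjusted p = 0.154).

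Genes higher at 80 than at 10 µg were spread over several lists. The foam-cell list had 8 of 21 such genes, against 0.676% of all genes (median difference 0.63), lysosome 7 of 19 (median 0.37) and mucous cells 5 of 20 (median 0.48). Mmp12 averaged 5.43 in DM lungs and 5.61, 6.88, 8.56 and 9.29 at 1, 10, 40 and 80 µg, and Gpnmb 6.17 in DM lungs and 6.27, 7.08, 8.54 and 9.30 at these doses. Mean Bpifb1 was 9.0 in DM lungs and 9.64, 10.16, 10.17 and 10.15 at the same doses. Its difference between 80 and 10 µg was -0.01 ± 0.26, and that of Reg3g was 0.30 ± 0.31 (limma, adjusted p = 0.993 and 0.823). In the B cells list the median difference from DM was -0.47 at 10 µg, -0.47 at 40 µg and -0.33 at 80 µg. In the NK list these medians were -0.42, -0.38 and -0.30.

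**Figure D4:**
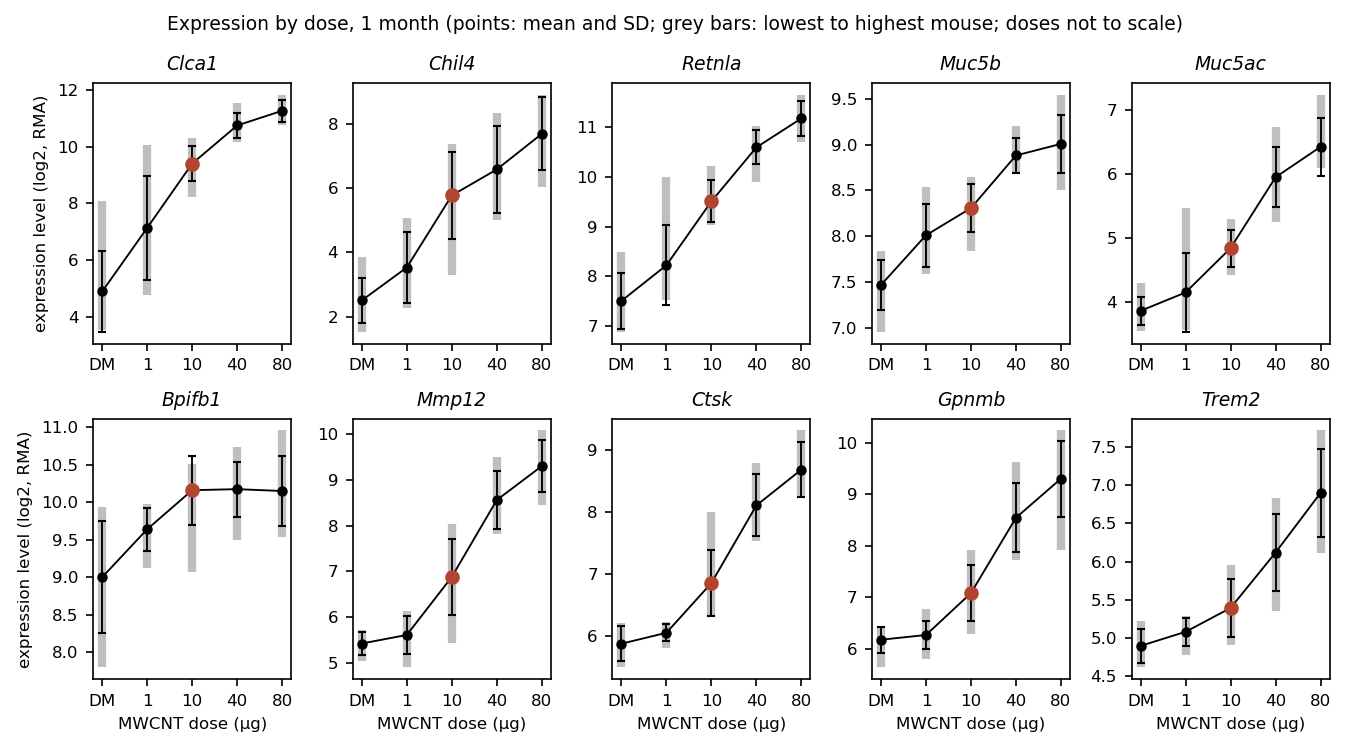
Expression level (log2, RMA) of 10 genes by dose 1 month after exposure, DM first and then 1, 10, 40 and 80 µg MWCNT; points and whiskers are the mean and SD of 8 mice, grey bars run from the lowest to the highest mouse, the red point marks 10 µg, and doses are evenly spaced, not to scale. Mean Bpifb1 is 10.16 at 10 µg and 10.15 at 80 µg, and mean Mmp12 is 6.88 at 10 µg and 9.29 at 80 µg.

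Later after the same dose fewer genes passed. At 6 months 1 gene did (0.00451%), Retnla, which rose by 1.79 ± 0.31 over DM of that time (limma, adjusted p = 0.000766). At an unadjusted p under 0.05 there were 1781 genes at 6 months (8.03%), 516 with a higher and 1265 with a lower mean. This was more than the 1018 (4.59%) at 1 month. At 12 months 0 genes passed (945, or 4.26%, at an unadjusted p under 0.05). The Clca1 difference from DM was 4.50, 2.57 and 1.82 at 1, 6 and 12 months, neither later value past the test (limma, adjusted p = 0.272 and 0.998). Chil4 differed by 3.27, 0.23 and -0.07, Muc5b by 0.84, 0.29 and 0.40, and Olfr605 by -0.94, 0.20 and 0.05. Retnla differed by 2.01, 1.79 and 0.44.

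When the 1-month difference was set against the later ones as an interaction, 0 genes passed at 6 months (limma; 604, or 2.72%, at an unadjusted p under 0.05) and 0 at 12 months (965, or 4.35%). For Chil4 the interaction, later minus 1 month, was -3.05 ± 0.82 at 6 months and -3.34 ± 0.82 at 12 months (unadjusted p = 0.00029 and 7.56e-05; adjusted p = 0.718 at 12 months). Fitted on the groups of the contrast alone, 2 genes passed at 12 months, Chil4 (adjusted p = 0.0255) and Klk1b24 (-1.67 ± 0.30, adjusted p = 0.0414), the last a kallikrein-related gene named after its value was seen. For Clca1 the interaction was -1.93 ± 0.90 at 6 and -2.68 ± 0.90 at 12 months. The B cells list, with a median of -0.47 at 1 month, had -0.12 at 6 and -0.10 at 12 months, and the NK list -0.42, -0.04 and -0.04.

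**Figure D5:**
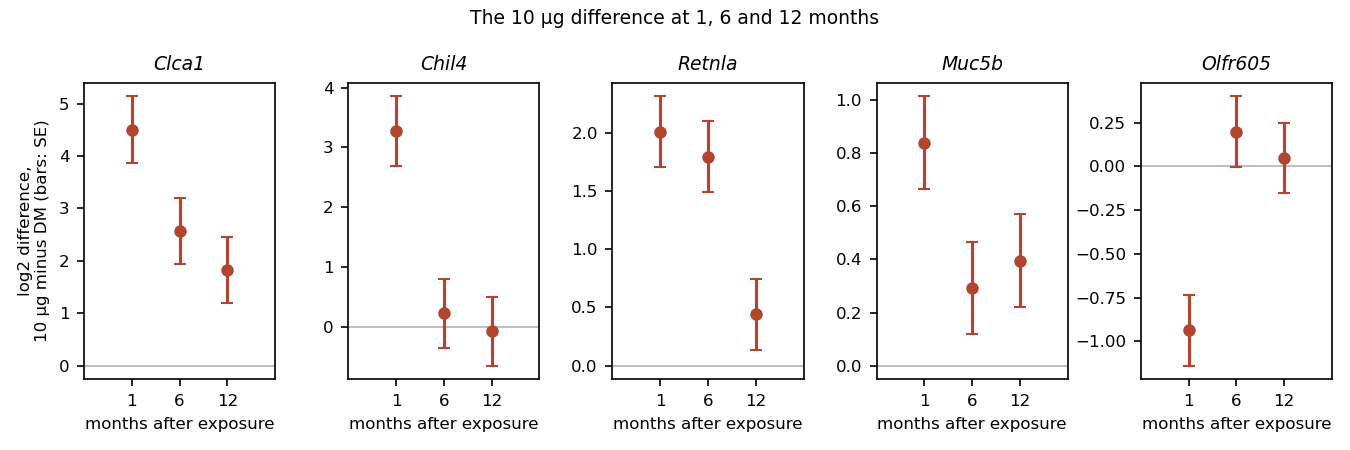
Log2 difference of 10 µg minus DM at 1, 6 and 12 months after exposure for the 5 genes past the test at 1 month; points are fitted differences, bars their SE, each time against DM mice of that time, and times are evenly spaced, not to scale. Retnla is 2.01, 1.79 and 0.44, and Chil4 is 3.27, 0.23 and -0.07.

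Among the 8 exposed mice, the order of Clca1 and Retnla was similar. Of 10 pairs formed by Clca1, Chil4, Retnla, Muc5b and Mmp12, that pair had Spearman's rho of 0.905 (two-sided exact permutation p = 0.00456, adjusted over the 10 pairs 0.0456) and Pearson's r of 0.782 (exact permutation p = 0.0199, adjusted 0.0995). Without the 2 mice farthest from the median of Clca1, r was 0.517 and rho 0.771 in the 6 left (exact permutation p = 0.303 and 0.103), neither past the test. Clca1 and Chil4 had r of 0.816 and rho of 0.595 (exact permutation p = 0.0154 and 0.132, adjusted 0.0995 and 0.331), and r of 0.370 and rho of 0.0857 without those 2 mice. The relation of Muc5b with Clca1 did not pass (r of 0.294, exact permutation p = 0.481, adjusted 0.602). Without the 1 exposed array that carries the word replacement, r of Clca1 and Retnla was 0.857 (exact permutation p = 0.00337, adjusted 0.0337).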

How the data were processed

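Log2 expression values of 139 arrays were used as deposited, and ran from -0.05 to 13.276. Per the submitters' processing notes, the authors used RMA, limma and oligo. No version, role of a tool or genome build is given in the sources used here. Of 41345 features 23521 had 1 gene symbol, 1814 several and 16010 none. Of the first, 23328 matched RefSeq records (GRCm38.p6). The feature with the highest mean was kept per gene, which set 1341 aside and left 22180 genes. The 2 arrays of 1 mouse at 1 µg were averaged, giving 138 mice in 18 groups.

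Groups come from the labelled source. Replicates are separately numbered mice, whose replicate numbers follow deposition order. Group means were fitted to all mice at once in limma (version 3.58.1, R 4.3.3) with empirical Bayes variances on 120 residual degrees of freedom, and two-sided p-values were adjusted over all genes after Benjamini and Hochberg. Differences are 10 µg minus DM unless said otherwise. Counts at an unadjusted p under 0.05 include any genes that passed. For every list of the main comparison they stand beside 1.87% of all genes with a higher and 2.72% with a lower mean. Members and gene lists (39, with 527 of 565 genes measured) were chosen with earlier results of these data known, so list counts are descriptions. Genes named are those past the test, the 12 highest and 8 lowest others by moderated t, a fixed panel, up to 3 genes per list with the largest difference, and the 3 highest and lowest of other contrasts, except where said. That rule skips predicted genes and olfactory receptors, also among the 12 highest and 8 lowest, except for genes past the test in the main comparison.

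The fit was tested on simulated data for the 1-month comparison of 10 µg with DM, in which 200 of 22180 genes were changed. It recovered 74% of genes changed 1.5-fold, 94% of those changed 2-fold and 100% at 3-fold and 4-fold, with 3 false among 187 calls. Simulated noise was independent between genes. With 187 calls the adjustment was also less strict than in the real comparison, where 5 genes passed. There Muc5b passed at 1.79-fold, while Fcgbp (2.31-fold), Mmp12 (2.73-fold) and Rnase2a (3.24-fold) did not. The simulated shares therefore do not give the share of real changes that was found. Precision is limited by the number of arrays. Alternatives covered scaling, moderation, feature choice, fits on fewer groups, covariates, array weights and left-out arrays. Correlations used scipy 1.17.1 with all 40320 pairings, and figures matplotlib 3.10.9.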

Additional observations from a re-analysis of the deposited data

Results flagged for a closer look

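In 30 of 292 sets of 8 mice (146 named genes in 2 groups), the highest or lowest mouse stood apart from the nearest other by more than Dixon's 95% limit. Chance alone flags about 5% of such sets, and genes of a mouse are not independent.

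In the 10 µg group, replicate 8 was the highest mouse for Acta1 (8.879, next 4.106), Myh1 (6.185, next 2.635) and Myh4 (5.305, next 2.274), all of skeletal muscle, and also for the cathepsin Ctss (10.81, next 10.15) and the neutrophil protein S100a8 (6.526, next 5.193). Replicate 6, whose array correlated least with the others, was the lowest for Chia1 (6.025, next 6.979), Sftpd (9.635, next 10.19), Col8a1 (3.96, next 4.927) and Ddx58 (7.026, next 7.501), and the highest for the mast cell protease Mcpt2 (1.878, next 1.488). Replicate 7 was the lowest for Bpifb1 (9.063, next 10.2), its relative Bpifa1 (6.008, next 8.408) and Adipoq (3.458, next 4.278). Replicate 1 was the lowest for Sftpc (12.26, next 12.55) and Scgb1a1 (12.25, next 12.52) and the highest for Irf7 (6.934, next 6.629). Replicate 4 was the highest for Egr1 (6.902, next 5.88).

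In the DM group, replicate 3 was the highest for Clca1 (8.102, next 5.358) and Rnase2a (4.079, next 2.217), and the lowest for Cxcl1 (2.256, next 2.929), Igfbp2 (7.397, next 8.227) and Pigr (6.477, next 7.258). Replicate 2 was the highest for the squamous genes Krt4 (12.11, next 3.528), Krt13 (10.72, next 4.155) and Lor (9.36, next 3.348) and for the T cell gene Cd5 (6.26, next 5.777). Replicate 5 was the highest for the clock gene Dbp (7.488, next 6.193) and the lowest for Npas2 (5.855, next 7.132), another clock gene. Replicate 8 was the lowest for Cldn5 (8.218, next 8.785) and replicate 4 for Klrk1 (4.15, next 4.943).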

How the results depend on the processing

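Clca1 (4.16 to 4.96) and Retnla (1.91 to 2.15) passed in all 30 alternatives, Chil4 in 27 of 29, Muc5b in 20 of 30 and Olfr605 in 9 of 29, and no called value changed sign. The count of 5 genes was 8 fitted on the 2 groups alone, 10 on the 1-month groups, 9 with quantile normalization, 3 with the word replacement as a covariate and 2 in arrays without it. Leaving out 1 array gave 3 to 6 genes, 3 of them without 10 µg replicate 1, 3, 5 or 8 or DM replicate 3 or 5. Of 40 over 10 µg, 4 genes became 13 with array weights, 1 after centring and 0 on those groups alone. Of 80 over 10 µg, 151 became 95 after centring (91 higher, 4 lower). The change of the 10 µg effect at 12 months, 0 genes, gave 2 on its groups alone. The correlation of Clca1 with Retnla was 0.857 without the replacement array. Means of Ccl24, Col1a1, Col3a1, Tgfb1, Il5, Il4ra, Il1b, Sftpc and Krt4, none past the test, changed direction in some settings. Beyond fewer arrays or groups in a fit, causes were not tested. No paired analysis was possible because replicate numbers only follow deposition order. Features with no or several symbols (17824) gave 0 calls in limma, with 655 at an unadjusted p under 0.05. Leaving out arrays high in Acta1 or Krt4, list counts in other arrays, unnamed features and leave-one-out fits of 2 groups were chosen after seeing the data. Signal over background is not known for any gene.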
